A study of Sus scrofa with 40 samples.

Results

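Cytosolic ribosomal proteins are the protein parts of the 2 ribosomal subunits that translate mRNA in the cytoplasm. They were taken here as the 77 rows, of 38794 named gene rows in each count table, whose symbols follow the RPL, RPS, RPLP or RPSA naming pattern, with 45 rows of the large subunit and 32 of the small subunit. The tables hold RNA sequencing counts of pig metaphase II oocytes, eggs that have completed maturation and await fertilisation, from commercial hybrid animals (Large White, Duroc and Berkshire). Each library is labelled as mtDNA deficient or mtDNA normal. The titles of deficient libraries also carry the mark neg and those of normal libraries pos, written BCBneg and BCBpos for single oocytes, so this mark and the mtDNA state cannot be told apart. The labels do not spell out the abbreviation, and they give no genotype. There are 5 deficient and 6 normal libraries from pooled oocytes, and 14 deficient and 15 normal libraries from 1 oocyte each. The series' design text gives 5 per group for the pooled oocytes, without saying whether that number counts pools or oocytes in a pool.

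A ribosome joins a small subunit, which reads the mRNA, to a large subunit, which forms the peptide bond, and the acidic stalk proteins of the large subunit recruit elongation factors. The growing oocyte stores ribosomes and maternal mRNA, and the mature oocyte makes almost no new RNA. Most ribosomal protein mRNAs carry a terminal oligopyrimidine tract, which lets LARP1 and mTOR signalling hold them back or release them for translation. Mammalian genomes also hold many near-identical copies of these genes, so reads can be shared or lost between copies. How such reads and the strand were treated in counting is not given in the sources used here, and every level of a single row is uncertain for that reason.

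The pools held 14480546 to 29538982 counts and the single oocytes 706929 to 3067523, so a level in CPM (counts for each 1000000 counts of the library) rests on more reads in a pool than in an oocyte. In single oocytes the row LOC102158401 took 46.7% to 76.0% of the counts, against 0.00311% to 0.0275% in the pools, and the 18S rRNA row RN18S took 2.06% to 4.86% against 0.175% to 1.30%. The pools and the single oocytes also differed in RNA extraction, amplification kit and depletion primers, and these cannot be told apart from pooling. The 9 oocyte genes listed as markers summed to 3817 to 12168 CPM in pools and to 1437 to 5809 CPM in single oocytes. These and the following marker levels are on totals that include LOC102158401, so pools and single oocytes are not on a like scale. Of the 15 cumulus and granulosa marker rows, 10 had a count in deficient pools and 8 in normal pools. In deficient and in normal oocytes 11 had a count. AMH and AMHR2 were at 0 in all 4 groups. The summed level of the cumulus and granulosa list was 67.7 to 192 CPM in deficient pools, 106 to 168 CPM in normal pools, 18.97 to 54.3 CPM in deficient oocytes and 6.19 to 43.3 CPM in normal oocytes. The theca and stroma list reached 7.27 CPM in deficient pools, 12.3 CPM in normal pools, 55.7 CPM in deficient oocytes and 43.5 CPM in normal oocytes. The leukocyte and blood list stayed at or below 4.59 CPM in every library. In bulk libraries, fewer cells of a type and less RNA per cell cannot be told apart. Whether libraries of a group are from separate animals is not in the labels; a p-value here therefore reflects only how far these libraries spread, which may be technical.

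Ribosomal protein transcripts were unevenly represented. In pools, 13 of the 77 rows averaged at least 10 CPM, 38 averaged 1 to 10 CPM, 24 were under 1 CPM and 2 had no count, and the median row averaged 2.49 CPM. In single oocytes the same classes held 20, 36, 19 and 2 rows, with a median of 3.36 CPM. The totals here include LOC102158401, so the classes are not on a like scale between library types. A count was present in every pool for 49 rows and in every oocyte for 20, at depths that differ too much to compare these numbers. The 2 rows without a count in any of the 40 libraries were RPL37A of the large subunit and RPS14 of the small subunit platform. A count of 0 allows RPL37A and RPS14 up to 0.0116 CPM over the pools and up to 0.0728 CPM over the single oocytes, for counting error only. Another 5 symbols of the reference that fit the naming pattern, RPLP0, RPL7A, RPL28, RPL36A and RPL22L1, had no row of that name in the counts.

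The row for RPS24, a small subunit protein that is mutated in some patients with Diamond-Blackfan anaemia, took 35.6% of the summed mean in pools and 41.2% in single oocytes. In the deficient pools RPS24 was at 222 CPM in A1, 214 CPM in A2, 207 CPM in A3, 293 CPM in B2 and 173 CPM in B4. In the normal pools RPS24 was at 290 CPM in A2, 195 CPM in A3, 268 CPM in A4, 193 CPM in B1, 449 CPM in B2 and 347 CPM in B4. The normal pools reached higher, and the groups overlapped. Among single oocytes RPS24 ran from 194 to 591 CPM, with a median of 333 CPM, in the deficient group and from 191 to 710 CPM, with a median of 324 CPM, in the normal group. RPS24 held 35.8% ± 2.95 (SD, n = 11) of the members' counts in a pool and 41.1% ± 7.22 (SD, n = 29) in a single oocyte. The other 3 rows of highest mean in pools were RPL4, RPL7 and RPL37, and in single oocytes RPL7, RPL5 and RPS2. The 5 rows of highest mean made up 60.0% of the summed level in pools and 56.0% in single oocytes. Counts were not divided by transcript length, so these shares do not order the genes by transcript number.

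The summed level of the 77 rows did not separate the mtDNA states. Among deficient pools it was 591 CPM in A1, 605 CPM in A2, 598 CPM in A3, 986 CPM in B2 and 514 CPM in B4, with a mean of 659 CPM ± 187 (SD, n = 5). Among normal pools it was 850 CPM in A2, 481 CPM in A3, 737 CPM in A4, 549 CPM in B1, 1195 CPM in B2 and 888 CPM in B4, with a mean of 783 CPM ± 258 (SD, n = 6). The ranges overlapped, and the log2 ratio of the means, deficient over normal, was -0.25 beside a within-group SD of 0.43 on the log2 scale. With TMM-scaled totals the ratio was -0.08. It was -0.20 within the pools titled A and -0.23 within those titled B. It was -0.44 without deficient B2 and -0.09 without normal B2, the pool that stood highest. The 18S rRNA share was highest in the normal pools of highest sum: it was 1.30%, 0.88%, 0.76% and 0.62% in normal B2, B4, A2 and A4, and 0.18% and 0.20% in the 2 normal pools of lowest sum. Among deficient pools the 18S share was 0.43% in B2 and 0.44% in A1, against 0.18% to 0.24% in the other 3. Its part in the result was not tested.

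**Figure D1:**
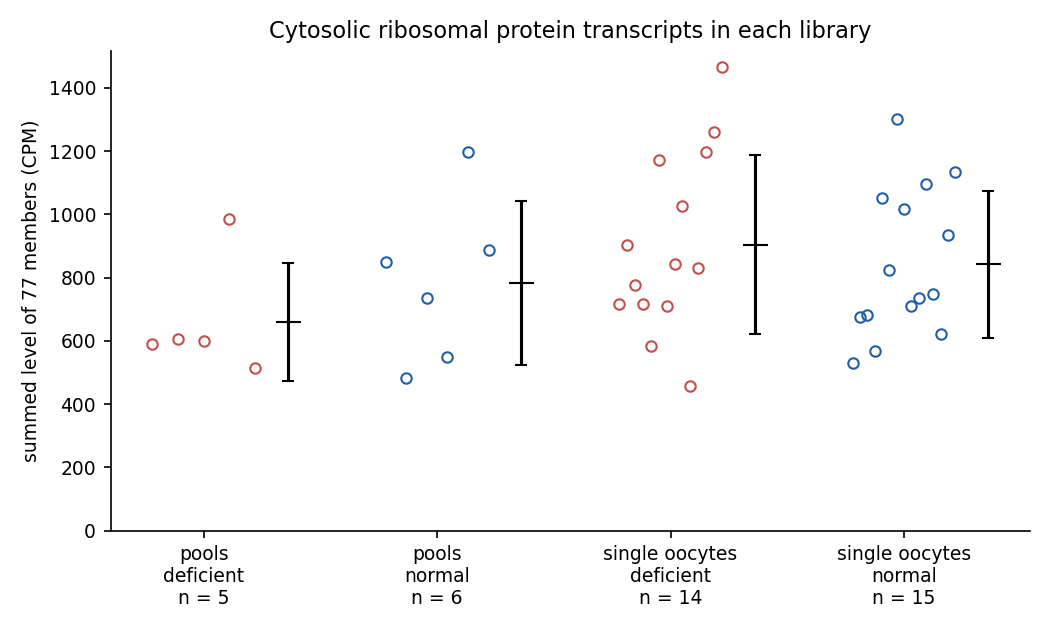
Summed level of the 77 ribosomal protein rows, in CPM on the vertical axis, for each library (open points, deficient red and normal blue), with the group mean and SD as black bars. The 4 groups overlap on these totals, which include LOC102158401 and RN18S. Deficient B2 at 986 CPM and normal B2 at 1195 CPM stand above the other pools. With LOC102158401 and RN18S taken out of the totals, pools ran from 482 to 1212 CPM and single oocytes from 1759 to 3849 CPM, without overlap.

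Single oocytes spread as widely. The summed level was 905 CPM ± 284 (SD, n = 14) in deficient oocytes, from 458 to 1467 CPM, and 842 CPM ± 233 (SD, n = 15) in normal oocytes, from 529 to 1300 CPM. For tests, the counts of oocytes of 1 state that share the first number of their titles were added, giving 4 deficient and 3 normal sums, the number being the only mark in the titles above the single oocyte. The column headers add a date, and deficient sum 4 (3 oocytes of 17 September and 4 of 22 September) and normal sum 4 (5 and 2) mix the dates. The headers of S21 and S31 (deficient), and of S29 and S6, and S30 and S7 (normal), are alike apart from this last code. Whether such a pair comes from separate oocytes is not in the titles, and each pair falls within a single sum. The deficient sums were at 816, 688, 676 and 1108 CPM and the normal sums at 810, 600 and 967 CPM. The log2 ratio of their means was 0.05 beside a within-group SD of 0.34. The sign of this ratio was not stable: it was -0.12 without deficient sum 4, -0.11 without normal sum 3, -0.14 with TMM-scaled totals and -0.11 with LOC102158401 and RN18S taken out of the totals. By the date in the column headers, the ratio over oocytes was -0.03 for 17 September and 0.24 for 22 September. The oocytes of 17 September averaged 811 CPM ± 216 (SD, n = 17) and those of 22 September 959 CPM ± 291 (SD, n = 12), with both states on both dates.

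No ribosomal protein row passed the test between states in the pools. With edgeR's quasi-likelihood test and Benjamini-Hochberg adjustment over all 13540 genes tested, 0 of 58 members were called, against 0% of all genes. At an unadjusted p under 0.05 the count was 1 member, against 5.36% of genes, and DESeq2 and limma-voom also called 0 members. The other 19 members were too low to be tested. Among the members tested 26 were higher and 32 lower in deficient pools, with a median log2 difference of -0.07 beside -0.002 over all genes. Single libraries moved this split: it was 16 higher and 42 lower, with a median of -0.33, without deficient B2, and 30 higher and 25 lower, with a median of 0.09, without normal B2. The median was also positive without deficient B4, at 0.01, and it was -0.13 without deficient A2 or normal A4, -0.20 without normal A3, -0.19 without normal B1 and -0.03 without deficient A1. With the title code as a block, over 8 pools, it was -0.31, and -0.20 with limma-voom. No member had groups that did not overlap, against 0.598% of all genes tested (0.207% higher and 0.391% lower in deficient pools). The medians were -0.07 for the 32 large subunit rows and -0.07 for the 26 small subunit rows.

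The members of smallest p in the pools came from both subunits. RPS2, a small subunit protein near the mRNA entry channel, was at 1.12, 1.73, 1.28, 3.44 and 0.836 CPM in deficient A1, A2, A3, B2 and B4. In normal A2, A3, A4, B1, B2 and B4, RPS2 was at 4.82, 2.20, 3.72, 3.42, 6.94 and 6.31 CPM. The groups touched only through deficient B2, which lay above normal A3 and B1. The log2 difference of RPS2 was -1.26 (SE 0.49), with an unadjusted p of 0.020 and an adjusted p of 0.903, and it did not pass. RPS6, the small subunit protein phosphorylated by S6 kinase, had a negative value too (-0.83, SE 0.52, adjusted p = 0.921 by edgeR). RPL15 (0.55, SE 0.30) and RPL5 (0.37, SE 0.21), which carries 5S rRNA into the large subunit together with RPL11, had positive values that did not pass (adjusted p = 0.921 for both).

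Members taken for their roles did not pass between the states of the pools, where the median SE of a member was 0.53 on the log2 scale. RPLP1, a stalk protein, was at 0.319 CPM ± 0.181 (SD, n = 5) in deficient and 0.675 CPM ± 0.285 (SD, n = 6) in normal pools, with a log2 difference of -0.93 (SE 0.78). RPLP2, its stalk partner, had a count in 2 of 5 deficient and 3 of 6 normal pools and was not tested. RPSA, the small subunit protein also known as a laminin receptor precursor, differed by -0.18 (SE 0.50), and RPS3, at the mRNA entry, by 0.15 (SE 0.56). RPS27A, made as a fusion with ubiquitin, differed by 0.46 (SE 0.62). In the large subunit RPL3, near the peptidyl transferase centre, differed by -0.07 (SE 0.63), RPL11 by -0.24 (SE 0.45) and RPL22 by 0.43 (SE 0.55). The best measured row, RPS24, differed by -0.21 (SE 0.20, adjusted p = 0.922).

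Single oocytes gave no call either. Over the 4 and 3 sums, edgeR's quasi-likelihood test called 0 of 51 members, against 0% of the 11964 genes tested, and 26 members were not tested. At an unadjusted p under 0.05 the count was 0 members against 1.93% of genes; it was 1 with DESeq2 and 2 with limma-voom, which called 0 members after adjustment. The members divided into 25 higher and 26 lower in deficient sums, with a median log2 difference of -0.0003 beside -0.002 over all genes. This median ran from -0.05 to 0.11 with 1 sum left out, and it was -0.06 with the oocytes summed by date as well, where 0 of 46 members were called. With each oocyte as a sample it was -0.10, with 10 higher and 17 lower of 27 tested. Such a fit gave -0.12 (6 higher and 19 lower) for 17 September alone and 0.09 (15 higher and 10 lower) for 22 September alone. Groups did not overlap in CPM for 2 of 51 members, or 3.92%, against 3.73% of all genes, which is near the background. RPS3 was higher and RPL22 lower in deficient sums, against 3.21% and 0.518% of genes.

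Sum by sum, RPS3 was at 9.75, 9.67, 4.59 and 9.56 CPM in deficient sums 1 to 4 and at 4.03, 3.89 and 1.98 CPM in normal sums 2 to 4, and deficient sum 3 lay closest to the normal group. Its log2 difference was 1.09 (SE 0.53, unadjusted p = 0.057, adjusted p = 1.00 by edgeR), and with TMM scaling over pools and sums its groups overlapped, at 5.86 in deficient sum 3 and 6.34 in normal sum 3. RPL22, an RNA-binding large subunit protein, was at 1.74, 0.806, 1.02 and 0.490 CPM in deficient sums and at 3.82, 2.38 and 1.76 CPM in normal sums. The log2 difference of RPL22 was -1.62 (SE 0.85, adjusted p = 1.00). In the pools RPL22 had the opposite sign, 0.43, and there a single library, deficient A2 at 8.56 CPM, stood above the other 10. RPS24 was at 289, 282, 254 and 434 CPM in deficient and 374, 261 and 411 CPM in normal sums, with a log2 difference of -0.33 (SE 0.18). RPL19 (0.63, SE 0.36) and RPS18 (0.53, SE 0.35), a protein of the small subunit head, complete the 5 of smallest p, and neither passed.

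**Figure D2:**
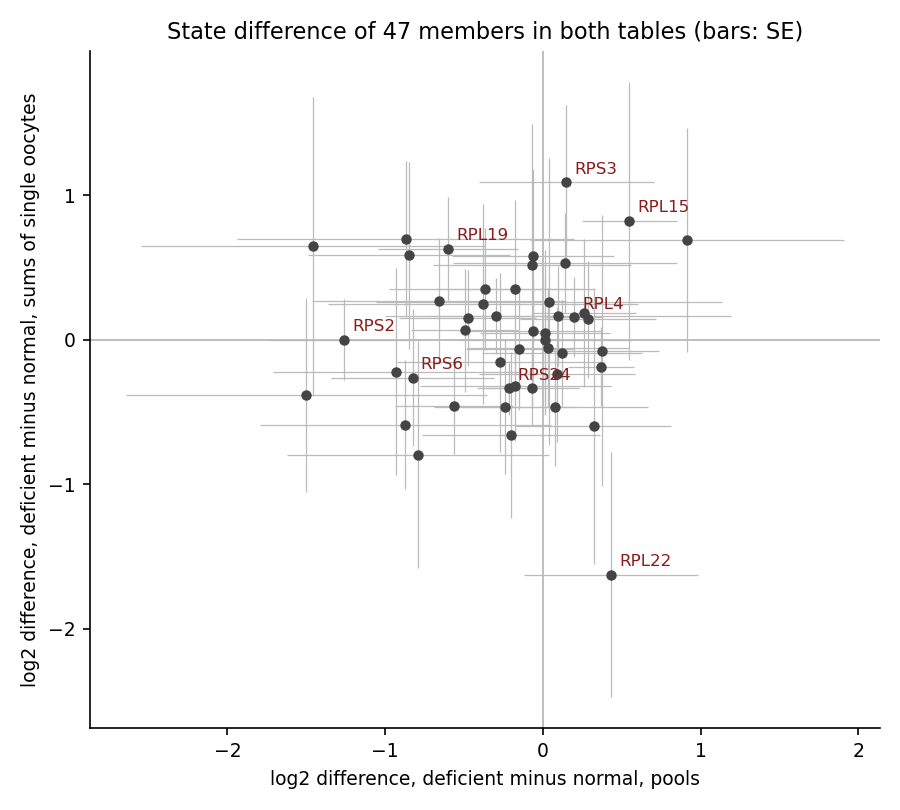
Each point is 1 of 47 ribosomal protein rows drawn of the 48 tested in both tables, with its log2 difference, deficient minus normal, in pools (horizontal axis) and in sums of single oocytes (vertical axis) and bars of 1 SE. The points surround 0 on both axes; RPS2 and RPL22 lie farthest from 0 among the labelled rows, on the pool axis and the sum axis respectively.

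The state differences of pools and sums come from separate libraries and can be set side by side. Of the 48 members tested in both, 24 had the same sign, or 50%, beside 4999 of 10467 genes, or 47.8%. The difference of the state effect between the library types was tested in 1 edgeR fit over 11 pools and 7 sums. It called 0 of 68 members, against 0% of 17643 genes, with 2 members (RPS2 and RPL22) at an unadjusted p under 0.05 against 5.32% of genes, and DESeq2 called 0 members with 3 under that value. For RPS2 the pool effect was lower than the sum effect by a log2 difference of -1.24 (SE 0.56), and for RPL22 it was higher by 2.08 (SE 0.98), with an adjusted p of 0.904 for both.

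Library type was accompanied by large differences of single rows, in both directions. In the same fit, pools minus sums, 43 of 68 members passed the threshold, or 63.2%, against 67.8% of all genes, so the share itself is near the background. At an unadjusted p under 0.05 there were 46 members, against 70.3% of genes. The direction was less even: 34 members were lower in pools, or 50.0%, against 35.2% of genes, and 9 were higher, or 13.2%, against 32.5% of genes. A row high enough in 1 library type alone enters this fit, for members as for all genes, and the direction of such a row follows partly from that. The median member was at -1.08 and the median gene at -0.13. The large subunit had 20 rows lower and 5 higher of 40 tested, and the small subunit 14 lower and 4 higher of 28. Scaling moves the all-gene median, to -0.33 with upper-quartile factors and to -0.60 with DESeq2 size factors. Relative to that median the members stood at -0.96 in each of these settings, with 46 of 68 members below it. With LOC102158401 and RN18S left out they stood at -0.82, with 46 of 70 members below it. No called member changed sign under these scalings. Levels of the 2 types did not overlap for 12 members, or 17.6%, against 34.1% of all genes tested. They were 3 higher in pools (RPL4, RPL27 and RPL31), against 18.9% of genes, and 9 lower (RPL17, RPL19, RPL26L1, RPL30, RPS2, RPS10, RPS18, RPS19 and RPS21), against 15.2%.

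**Figure D3:**
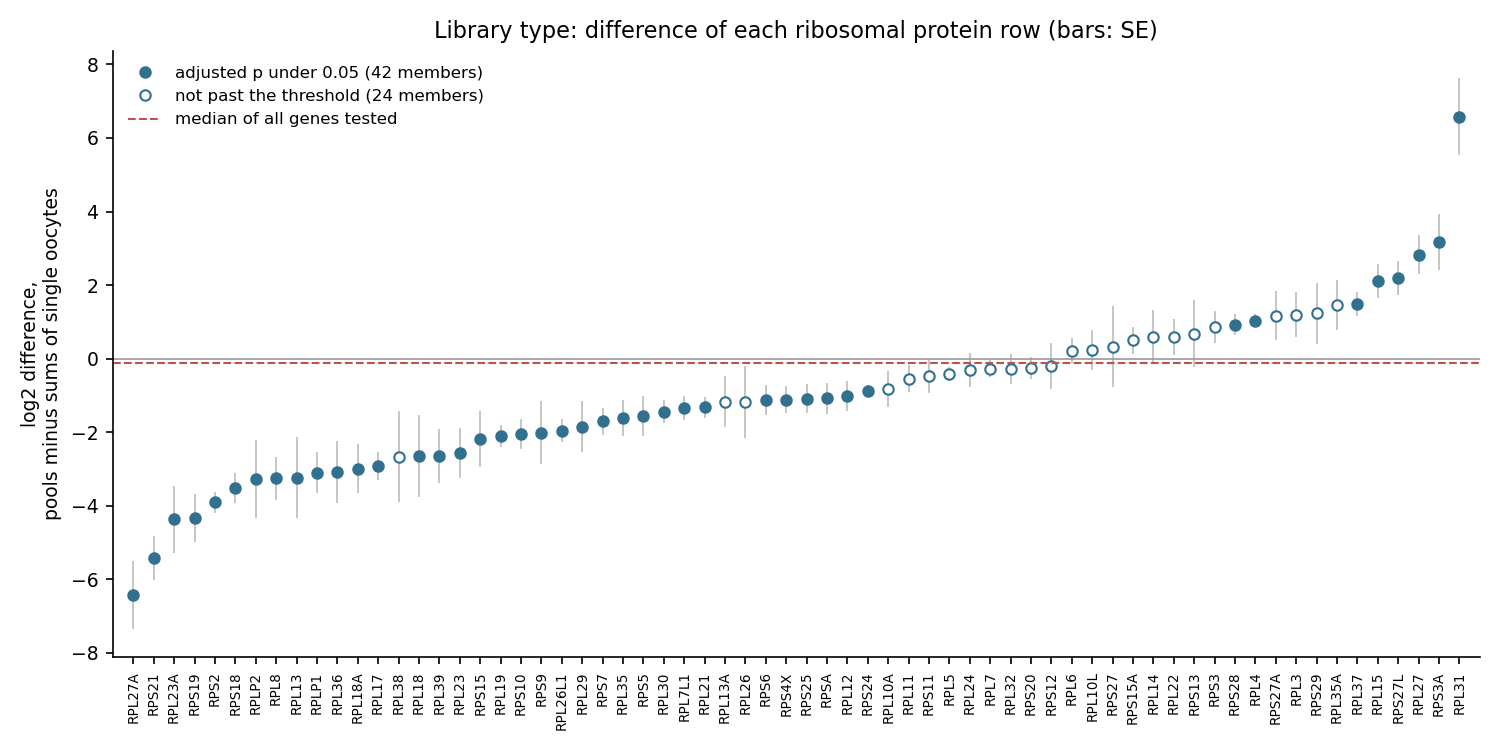
Log2 difference, pools minus sums of single oocytes, of 66 ribosomal protein rows drawn of the 68 tested (vertical axis), ordered by value, with bars of 1 SE. Filled points are the 42 drawn rows past the threshold; the dashed line is the median of all genes at -0.13, and 46 rows lie below it.

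Of the rows lower in pools, RPS2, RPS21 and RPS18 of the small subunit had the smallest p, followed by RPL17 of the large subunit. The following levels are CPM on TMM-scaled totals of all 18 columns. RPS2 was at 2.73 ± 1.47 (SD, n = 11) in pools, from 0.707 to 5.23, and at 35.7 ± 8.75 (SD, n = 7) in sums, from 20.3 to 48.4. Its log2 difference was -3.90 (SE 0.29), and every sum exceeded every pool. RPS21 was at 0.388 ± 0.410 in pools and 17.7 ± 4.73 in sums (-5.42, SE 0.61). RPS18 was at 1.16 ± 0.757 in pools and 13.8 ± 3.00 in sums (-3.52, SE 0.42). RPS19, the most often mutated gene of Diamond-Blackfan anaemia, was at 0.256 ± 0.242 in pools and 4.60 ± 2.14 in sums (-4.33, SE 0.65). In the large subunit, RPL17 of the peptide exit was at 1.49 ± 0.618 in pools and 11.2 ± 3.74 in sums (-2.93, SE 0.38), and RPL19 differed by -2.10 (SE 0.31). RPL27A was nearly absent from pools, at 0.020 ± 0.031, and at 2.35 ± 1.35 in sums (-6.42, SE 0.93). RPL27A and RPS19 were too low to be tested in the pools alone and entered this fit through the sums. The stalk proteins RPLP1 (-3.10, SE 0.56) and RPLP2 (-3.27, SE 1.05) were lower in pools as well, though RPLP2 was too low to be tested in either table alone.

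Rows higher in pools were mostly of moderate level. RPL4, which lines the peptide exit tunnel, was at 56.9 ± 8.53 (SD, n = 11) in pools, from 46.0 to 74.0, and at 27.99 ± 5.44 (SD, n = 7) in sums, from 20.8 to 34.0. The log2 difference of RPL4 was 1.03 (SE 0.18), and every pool exceeded every sum. RPL27 was at 6.68 ± 3.29 in pools and 0.850 ± 0.719 in sums (2.83, SE 0.52). RPL15 (2.11, SE 0.45), RPL37 (1.49, SE 0.33), RPS27L (2.19, SE 0.45) and RPS3A (3.17, SE 0.75) were higher in pools too, with ranges that overlapped between types. RPL27 and RPS3A were too low to be tested in the sums alone and entered this fit through the pools, as did RPL31. On the TMM-scaled totals RPL31 was at 2.09 ± 0.898 in pools and 0.031 ± 0.082 in sums (6.58, SE 1.04). RPL31 had 668 counts over the pools and 1 count over all single oocytes. On unscaled totals, which include LOC102158401, that is 2.59 against 0.0243 CPM. The ratio of these unscaled RPL31 levels was 107, with an exact 95% interval of 19.1 to 4216 for counting error only. RPS24, the highest row, was at 224 ± 50.1 in pools and 401 ± 74.0 in sums, with overlapping ranges, and its difference was -0.87 (SE 0.15, edgeR adjusted p = 2.19e-05). RPL7 (-0.28, SE 0.23), RPL11 (-0.55, SE 0.37), RPL3 (1.19, SE 0.62) and RPL22 (0.59, SE 0.50) did not pass.

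**Figure D4:**
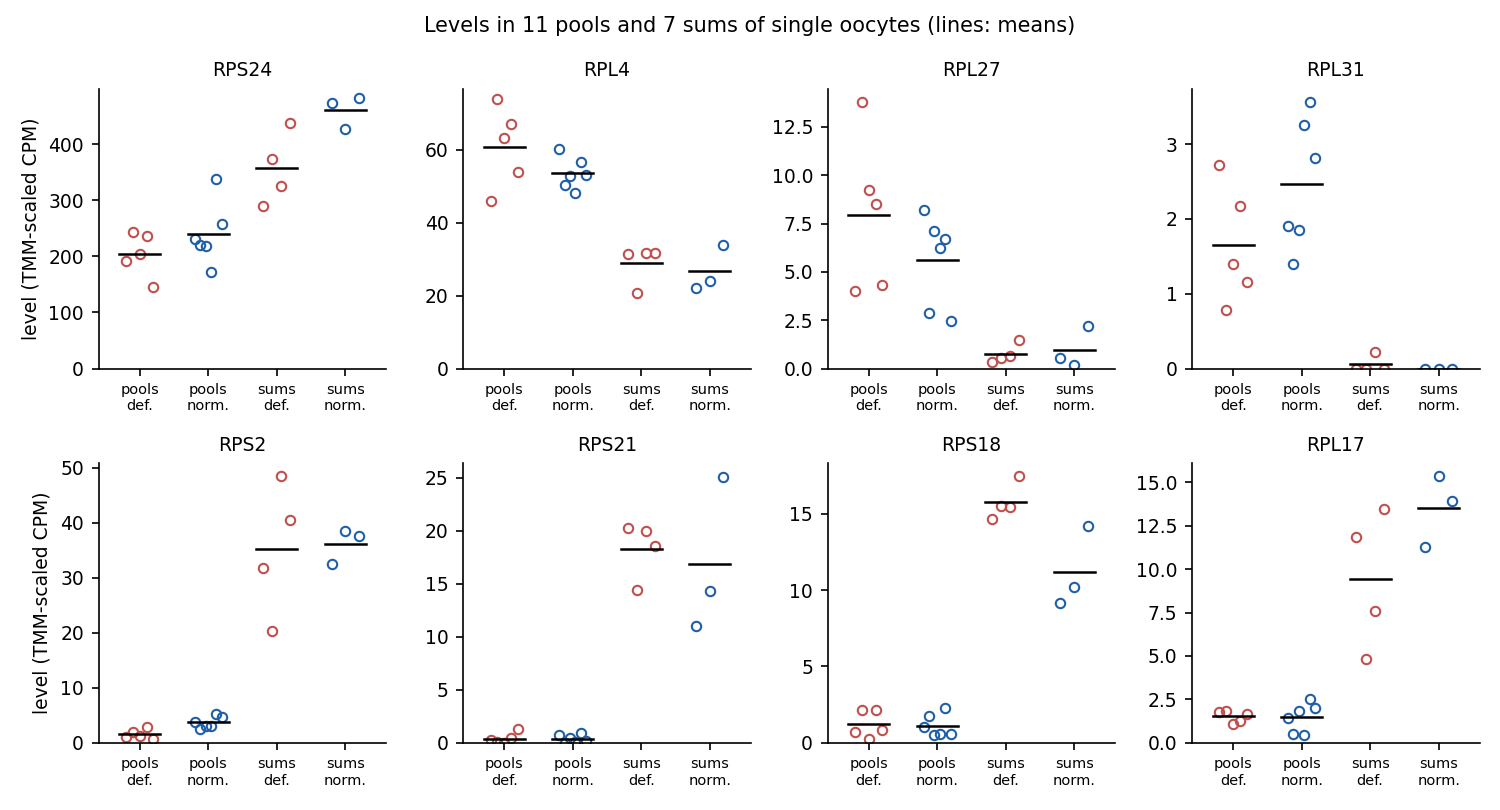
Level of 8 ribosomal protein rows in CPM on TMM-scaled totals (vertical axes, each starting at 0) in each pool and each sum of single oocytes, deficient red and normal blue, with lines at group means. RPL4, RPL27 and RPL31 are higher in pools, RPS2, RPS21, RPS18 and RPL17 are higher in sums, and the RPS24 ranges overlap.

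Paralog rows had uneven shares of counts. RPL26L1, which is nearly identical to RPL26, held 95.1% of the counts of both rows in pools and 96.7% in single oocytes, and was higher than RPL26 in all 11 pools and all 29 oocytes. RPL10L, an autosomal retrocopy of the X-linked RPL10, held 99.4% in pools (809 against 5 counts) and 80.0% in single oocytes (84 against 21 counts). RPS27L, a paralog of RPS27 that responds to p53, held 97.7% in pools and 88.8% in single oocytes. RPL7L1, related to RPL7 and known from large subunit assembly, held 17.4% in pools and 32.2% in single oocytes. RPL3L, the muscle paralog of RPL3, held 0.0572% in pools (1 of 1747 counts) and 9.80% in single oocytes (10 of 102 counts). These are shares of counts, not divided by length, between sequences that reads may not tell apart. Between states, RPL10L differed by 0.32 (SE 0.49) and RPS4X, the X-linked small subunit protein, by 0.12 (SE 0.51) in the pools, and neither passed.

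Many members had their highest CPM in the same pool. Normal B2 held the highest CPM of 27 of 58 members, or 46.6%, beside 21.4% of all genes tested, and deficient B2 held that of 12, or 20.7%, beside 10.3%. Deficient A1 and A3 held the highest value of no member. Members of 1 library share its total and its preparation, so these counts describe the libraries.

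**Figure D5:**
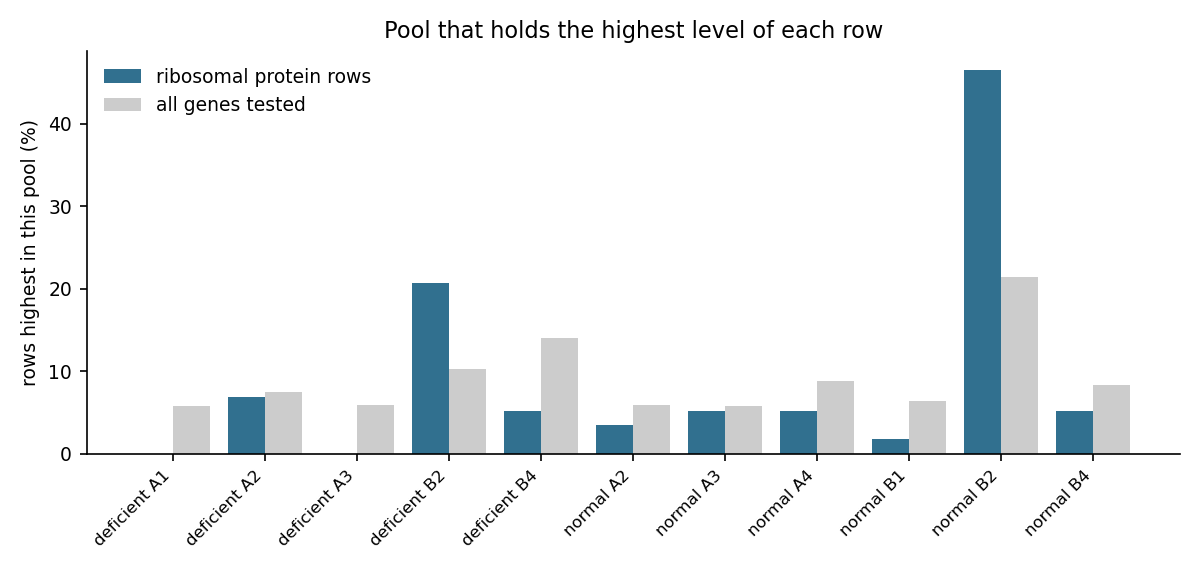
Share of rows, in percent on the vertical axis, whose highest CPM among the 11 pools falls in each pool, for the 58 ribosomal protein rows tested (blue) and all genes tested (grey). Normal B2 holds 46.6% of the ribosomal rows and deficient B2 20.7%, against 21.4% and 10.3% of all genes.

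Genes that surround the ribosome gave no call between states in either table (edgeR, adjusted p of 0.921 or higher in pools for each of these lists). The 10 lists were ribosome members outside the naming pattern, elongation factors and other oligopyrimidine mRNAs, their regulators, RNA polymerase I, small and large subunit assembly, nucleolar proteins, chaperones of ribosomal proteins, rescue factors and dormancy factors. Between library types each list had calls, together 44 higher and 42 lower in pools of 104 genes tested, or 82.7%, against 67.8% of all genes. Among the ribosome members outside the pattern, 0 were higher and 2 lower of 4, and FAU, which encodes RPS30 fused to a ubiquitin-like protein, differed by -3.94 (SE 0.57). Elongation and oligopyrimidine mRNAs had 6 higher and 4 lower of 12: EEF1A1, which delivers tRNA, differed by -1.26 (SE 0.18) and PABPC1, which binds poly(A) tails, by 1.80 (SE 0.65). Regulators had 6 higher and 6 lower of 15, with LARP1 at 0.95 (SE 0.15) and MTOR at -0.84 (SE 0.27). RNA polymerase I had 2 higher and 5 lower of 11, with POLR1A, its largest subunit, at -2.92 (SE 0.43). Small subunit assembly had 8 higher and 8 lower of 19, and large subunit assembly 10 higher and 8 lower of 20. Nucleolar proteins had 2 higher and 3 lower of 6, with a list median of -0.74 and NPM1 at 4.70 (SE 0.27). Chaperones had 2 higher and 2 lower of 5. Rescue factors, which free stalled ribosomes, had 6 higher and 2 lower of 8, with NEMF at 4.30 (SE 0.31). Dormancy factors, which occupy idle ribosomes, had 2 higher and 2 lower of 4: SERBP1 differed by 1.34 (SE 0.15), HABP4 by 0.97 (SE 0.25), CCDC124 by -4.57 (SE 0.62) and IFRD2 by -3.09 (SE 0.37).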

How the data were processed

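The authors deposited 2 tables of raw read counts per gene, 1 for 11 pools and 1 for 29 single oocytes, with 100 bp paired-end reads per the labels' protocols. Per the submitters' processing notes the tools were FastQC, Trim Galore, TopHat2 2.0.14 and edgeR, on Sscrofa10.2. Which program counted reads, and with which strand and multi-read settings, is not given in the sources used here. Counts without a gene name (1.05% to 4.75% per pool, 0.648% to 8.15% per oocyte) were left out. Counts were analysed with edgeR 4.0.16 (quasi-likelihood test, TMM, filterByExpr, adjusted p under 0.05 over all genes) in R 4.3.3, with limma 3.58.1 and DESeq2 1.42.0 as alternatives. An SE is the log2 difference divided by the square root of its F statistic. Single oocytes were summed by state and the first title number. Deviations from the group mean were compared between states that share a title number or code. In sums the correlations were 0.166, 0.217 and 0.169 for numbers 2, 3 and 4. Each of these deficient sums matched its own number best. Sums 2 hold only oocytes of 22 September and sums 3 only those of 17 September. Number and date cannot be told apart there. In pools the correlations were -0.080, 0.137, 0.470 and 0.123 for A2, A3, B2 and B4. Deficient A3, B2 and B4 matched their own code best, and deficient A2 matched normal A3 best. The main tests used no block. On simulated counts the shares of true changes found, at a log2 size of 1 and then of 2, were 9.38% and 50% in pools, 14.7% and 65.3% in sums, 17.3% and 51.5% between library types, and 0% and 7.07% for the difference of the state effect.

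Members and lists were chosen with earlier results of these data known. Single genes of the lists were named without a rule set beforehand and need not stand for their list. Named members are those past the threshold between library types (up to 8 in each direction by smallest p), the 5 of smallest p between states in each table, the 4 highest and 4 lowest by mean CPM in each table, and a set fixed by role; RPL30 and RPS10 were named after their values were seen. The values of 2 members under this rule are not reported here, nor are these members drawn as points, though they stay in every count. All 77 symbols matched the RefSeq gene tables, and sequences, lengths and coordinates were not used here.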

Additional observations from a re-analysis of the deposited data

Results flagged for a closer look

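Of 90 groups of 4 to 6 libraries or sums examined, 7 held a value far from the rest of its group, where chance flags about 1 in 20. In deficient pools the summed level of the ribosomal protein rows was 986 CPM in B2, with the other 4 between 514 and 605 CPM. RPS4X was at 21.96 CPM in the same pool, with the others between 1.54 and 7.21 CPM. RPL22 was at 8.56 CPM in deficient A2, with the others between 1.07 and 2.68 CPM. In normal pools RPS27L was at 20.9 CPM in B4, with the others between 7.60 and 11.4 CPM. In the deficient sums of single oocytes RPL15 was at 10.4 CPM in sum 1, with the others between 0.403 and 1.84 CPM, and RPL23A at 5.76 CPM in sum 4, with the others between 0 and 0.806 CPM. RPS3 was low in deficient sum 3, at 4.59 CPM, with the other 3 between 9.56 and 9.75 CPM.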

How the results depend on the processing

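Under every alternative run, 0 members were called between states in pools, between states in sums and for the difference of the state effect. With the title code as a replicate block over the 8 pools that share one, 0 of 58 members were called, as without the block. With the title number as a block over 6 sums, 0 of 52 members and 2 of 12059 genes were called. Over all genes, DESeq2 called 28 in pools, 2 in sums and 1 for the difference of the state effect, where edgeR called 0. Between library types 29 of 56 members were called in deficient libraries alone (59.6% of all genes), 29 of 65 in normal libraries alone (55.0%), 32 of 44 with each oocyte as a sample (80.6%), 49 of 68 with DESeq2 size factors (68.3%) and 50 of 68 with DESeq2 (69.1%). With 1 pool or sum left out, 40 to 45 members were called. Of the 43 members called, 26 kept the call wherever tested, 17 lost it under at least 1 alternative and 6 with at least 1 library left out. Those 6, chosen here after their values were seen, were RPL18 and RPS9 (9 of 18 libraries each), RPL29 (3), RPL12 (2), RPSA (2, deficient sum 1 and normal sum 3) and RPS25 (1). With DESeq2 size factors 38.3% of the genes called were higher in pools, against 48.0%, and members split 8 higher and 41 lower. The fits on shared codes without the block and the sums without RPS24 (-0.17 in pools, 0.19 in sums) were chosen after seeing the data. At 706929 to 3067523 counts, 20 of 77 rows had a count in every single oocyte.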
